A study of Mus musculus with 6 samples.

Results

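Nppa and Nppb encode the atrial and B-type natriuretic peptides, hormones made by heart muscle cells, and they were followed here by their Ensembl identifiers, ENSMUSG00000041616 for Nppa and ENSMUSG00000029019 for Nppb. They are 2 of the 48505 genes in the deposited tables, and they hold 34 windows (Nppa) and 31 windows (Nppb) of 5193362 in all. The measurement was an immunoprecipitation (IP) with a polyclonal antibody against N6-methyladenosine (m6A), a methyl mark on RNA, after which the bound RNA fragments were sequenced. The libraries came from hearts pooled from fetuses of both sexes at gestational day 15, all of the FVB/NJ strain and wild type. In the nano-TiO2 group (3 libraries) the dams, aged 10 weeks, had inhaled engineered titanium dioxide nanoparticles at a target of 12 mg/m3, 360 minutes a day on 6 days over an 8-day stretch, the first on gestational day 5; in the sham group (3 libraries) they had breathed filtered air. Nothing in the labels tells which litters went into which pool, so the tests measure only the spread between these 6 samples, which may be technical.

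Both genes encode a precursor that is cut into an active ring-shaped peptide. Nppa gives atrial natriuretic peptide, whose precursor is cut by corin at the cell surface, and Nppb gives B-type natriuretic peptide, whose precursor can also be cut inside the cell by furin. Both peptides act through the guanylyl cyclase receptor Npr1, raise cyclic GMP and promote salt excretion and vessel relaxation, and the receptor Npr3 clears them. In the fetal heart Nppa is made in the atria and in the trabeculae of the ventricles, and its ventricular level drops after birth. Renewed ventricular Nppa and Nppb are widely used as signs of cardiac load.

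The genes are neighbours: in RefSeq's order on chromosome 4, Nppb is followed by Nppa, with 2510039O18Rik before the pair and Clcn6 after it. The 250 bases before each annotated start are shown to set the control letters of this neighbouring pair side by side, since the members differed widely in IP level. Whether these letters bear on that difference was not tested. Sequences are RefSeq's, build GRCm38.p6, forward strand, and capitals mark the motifs searched.
Nppa, chr4:148000472-148000721: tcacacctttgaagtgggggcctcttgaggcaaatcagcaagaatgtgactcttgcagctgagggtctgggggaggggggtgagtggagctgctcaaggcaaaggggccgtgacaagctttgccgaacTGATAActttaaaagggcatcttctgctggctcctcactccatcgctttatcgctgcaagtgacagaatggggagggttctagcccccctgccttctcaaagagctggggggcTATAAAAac
Nppb, chr4:147985650-147985899: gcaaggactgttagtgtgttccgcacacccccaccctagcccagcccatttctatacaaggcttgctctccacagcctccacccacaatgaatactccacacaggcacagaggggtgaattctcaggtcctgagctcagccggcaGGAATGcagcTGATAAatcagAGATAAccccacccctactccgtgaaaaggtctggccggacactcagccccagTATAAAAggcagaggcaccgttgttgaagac
A GATA motif (TGATAA or AGATAA, either strand), the letters that GATA factors such as Gata4 bind, lay 122 bases before the start in Nppa, and in Nppb at 95 and 84 bases. A TATA box (TATAAAA, either strand) began 9 bases before the annotated start of Nppa and 31 before that of Nppb. An M-CAT motif (GGAATG, either strand), which TEA domain factors bind, was found 105 bases before the start of Nppb; these letters are not in the Nppa stretch. No 2 of these matches overlap. Over the 32851 stretches of this length in the table, 16.6% hold the GATA letters, 4.98% the TATA box and 12.6% the M-CAT letters. A match describes the letters only. RefSeq's span of Nppb also takes in a longer transcript that starts inside the stretch shown.

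Summed over all gene windows, the libraries held 20205024 to 28251706 reads in the nano-TiO2 group and 22151447 to 31523675 in the sham group, recovered from the deposited values. These totals cover gene windows only, and the library totals and shares of a library below rest on them. The 4 most abundant genes, which the tables give by identifier only, took 13.6% ± 5.1 of a nano-TiO2 library and 25.95% ± 8.1 of a sham library (SD, n = 3 each), so the scaling of the libraries bears on every level below. IP level cannot tell more transcript from more methylation of it, and in pooled hearts fewer cells of a type and less RNA per cell cannot be told apart. Input libraries were not used here.

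The comparison of the groups asked whether m6A-bound RNA of the pair differed after gestational exposure. Nppa had one of the highest IP levels of all genes for its length in both groups. Its summed IP level was 51648, 42649 and 59699 normalized reads in nano-TiO2 replicates 1, 2 and 3, against 34628, 53735 and 39157 in sham replicates 1, 2 and 3. The groups overlapped, since sham replicate 2 lay above 2 of the 3 nano-TiO2 libraries. The means were 51332 ± 8529 in nano-TiO2 and 42507 ± 9984 in sham libraries (SD, n = 3 each), a ratio of 1.21. The difference did not pass the test: the log2 change was 0.28 ± 0.20 SE (95% interval -0.18 to 0.74; adjusted p = 0.31, limma on log2 of the summed value plus 1, adjusted over 18566 genes). Across those genes 36% passed at an adjusted p of 0.05, and in 49.5% the groups did not overlap.

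Nppb was bound at a far lower level and leaned the other way. It had 1724, 756 and 1398 normalized reads in nano-TiO2 replicates 1, 2 and 3, against 1925, 1300 and 2884 in sham replicates 1, 2 and 3. The groups overlapped again, with nano-TiO2 replicates 1 and 3 above sham replicate 2. The means were 1293 ± 492 in nano-TiO2 and 2036 ± 798 in sham libraries (SD, n = 3 each), a ratio of 0.635. This difference did not pass either, at a log2 change of -0.66 ± 0.35 SE (95% interval -1.45 to 0.13; adjusted p = 0.17, limma). The estimate leaned on single libraries: it was -0.32 without nano-TiO2 replicate 2, the lowest library, -0.37 without sham replicate 3, the highest, and -0.95 without sham replicate 2, and it passed in none of the fits that left out a library (adjusted p 0.075 to 0.44, limma).

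**Figure D1:**
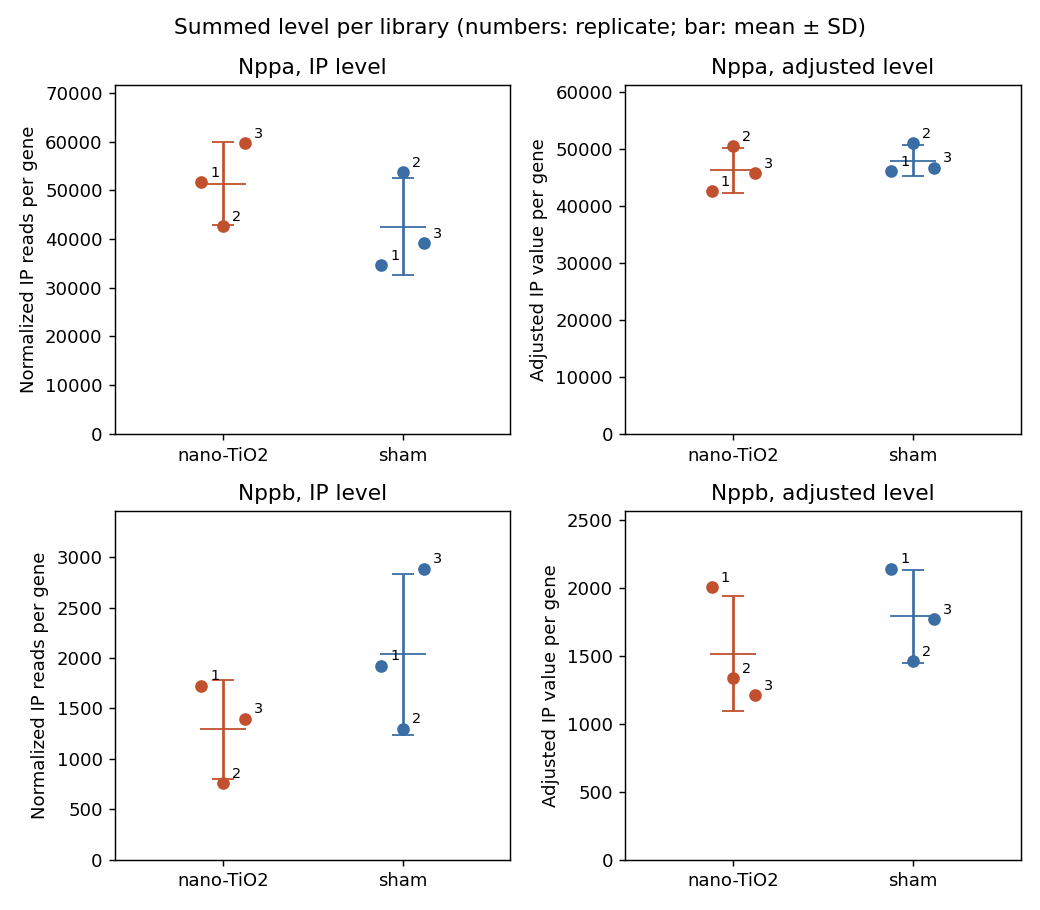
Summed level of Nppa (top) and Nppb (bottom) in each library, as normalized IP reads (left) and as the values the authors call adjusted (right). Points are libraries numbered by replicate, bars are mean ± SD (n = 3), and in all 4 panels the nano-TiO2 and sham libraries overlap.

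The call for Nppa depended on how the libraries were put on one scale. As reads per 1000000 of the library, Nppa had 2291, 2145 and 2624 in nano-TiO2 replicates 1, 2 and 3, against 1247, 1556 and 1308 in sham replicates 1, 2 and 3, and on this scale the groups did not overlap. The share of all genes without overlap on this scale was not counted. With equal library totals the log2 change of Nppa was 0.78 ± 0.19 SE (adjusted p = 0.0057, limma), while the median change of all genes moved to 0.61, against 0.13 with the deposited scaling. Of 18566 genes, 8005 passed as higher and 170 as lower in that fit. When the 4 most abundant genes were left out of the totals the Nppa change was 0.55 (adjusted p = 0.049, limma), beside a median of 0.39. There 6300 genes passed as higher and 1012 as lower. After quantile normalization the Nppa change was 0.75 (adjusted p = 0.016, limma), beside a median of -0.05. In that fit 3075 genes passed as higher and 2796 as lower. Under TMM scaling (0.24, adjusted p = 0.39, limma) and with DESeq2 on recovered reads (0.15, adjusted p = 0.61, DESeq2) Nppa did not pass. The median change of all genes was 0.08 under TMM scaling, where 4299 genes passed as higher and 2584 as lower. With DESeq2 it was -0.01, where 3821 genes passed as higher and 3495 as lower. Nppb kept a negative change under each of these scalings, between -0.77 with DESeq2 and -0.16 with equal library totals, and passed in none of them. As reads per 1000000 it had 76.5, 38.0 and 61.4 in nano-TiO2 replicates 1, 2 and 3, against 69.3, 37.7 and 96.3 in sham replicates 1, 2 and 3, so the groups interleaved.

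**Figure D2:**
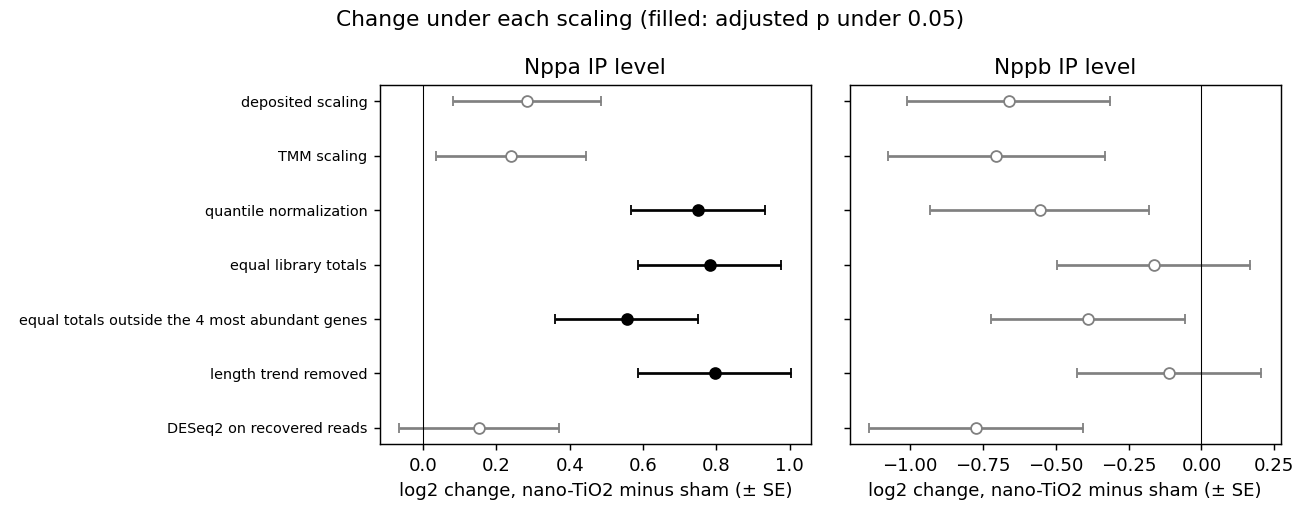
IP log2 change of Nppa (left) and Nppb (right), nano-TiO2 minus sham, under each scaling, with bars of ± SE. Filled points have an adjusted p under 0.05, which Nppa reached under quantile normalization, both forms of equal totals and removal of the length trend; Nppb did not reach it under any scaling shown.

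Ranks within a library do not depend on its scale. Per window, which sets genes of different length on one footing, Nppa ranked 18, 14 and 18 among 18566 genes in nano-TiO2 replicates 1, 2 and 3, against 34, 24 and 35 in sham replicates 1, 2 and 3. Every nano-TiO2 rank was nearer the top than every sham rank. The share of all genes whose ranks separated the groups was not counted, so this cannot be read as particular to Nppa. In summed IP level, a different measure, the groups did not overlap in 49.5% of genes. Nppb ranked 738, 1519 and 947 in the nano-TiO2 libraries and 943, 1221 and 716 in the sham libraries, with no separation. Among the values the authors call adjusted, Nppa ranked 24, 21 and 21 of 19361 in nano-TiO2 replicates 1, 2 and 3. In sham replicates 1, 2 and 3 it ranked 24, 21 and 23, so the groups overlapped. A rank moves with the other genes too. Both members are short, and genes with few windows were mostly lower in nano-TiO2: in the fifth of tested genes with the fewest windows (8 to 52), the changes had a median of -0.48 on the log2 scale (interquartile range -0.80 to -0.04), with 171 called higher and 1271 called lower of 3740. Nppa's 0.28 lay above that interquartile range and Nppb's -0.66 lay inside it. With a straight-line trend on log2 windows removed from each library, Nppa's change was 0.79 ± 0.21 SE (adjusted p = 0.027, limma) and Nppb's -0.11 ± 0.32 SE (adjusted p = 0.83, limma), beside a median of 0.13 over all genes. In that fit 3221 of 18566 genes passed as higher and 1153 as lower.

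**Figure D3:**
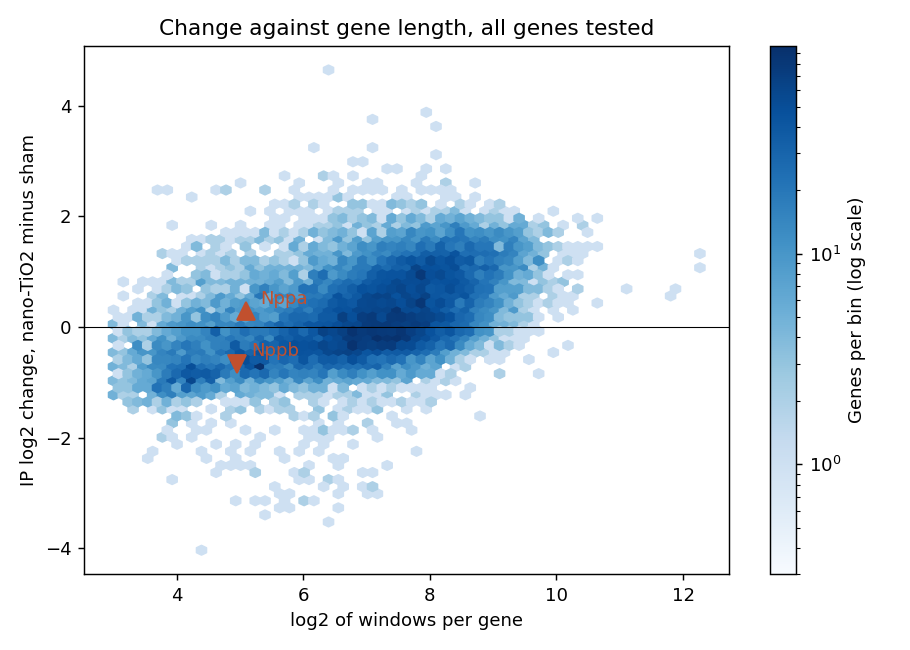
IP log2 change, nano-TiO2 minus sham, against log2 of the number of windows for the 18566 genes tested; shade gives genes per bin on a log scale. Nppa (0.28) lies above and Nppb (-0.66) within the bulk of genes of their length.

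The balance of the pair was compared through Nppb as a percentage of Nppa, which no scaling of whole libraries can move. It was 3.34%, 1.77% and 2.34% in nano-TiO2 replicates 1, 2 and 3, against 5.56%, 2.42% and 7.37% in sham replicates 1, 2 and 3. Sham replicate 2 lay among the nano-TiO2 libraries, and the other sham libraries lay above all of them. The mean log2 ratio was -5.38 ± 0.46 in nano-TiO2 and -4.43 ± 0.84 in sham libraries (SD, n = 3 each), a difference of -0.95 (exact two-sided permutation p = 0.2, where 3 against 3 cannot go below 0.1; adjusted p = 0.467 over the 7 values compared per library). In the adjusted values the percentages were 4.70%, 2.64% and 2.65% in nano-TiO2 replicates 1, 2 and 3, against 4.64%, 2.86% and 3.78% in sham replicates 1, 2 and 3. Per window Nppa held 1510 ± 251 normalized reads in nano-TiO2 and 1250 ± 294 in sham, and Nppb 41.7 ± 15.9 and 65.7 ± 25.7 in the same groups (SD, n = 3 each).

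The table the authors call adjusted divides each gene's IP values in a library by 1 factor; what the factor was made from is not stated in the sources used here. After it, the Nppa libraries came close together. Nppa summed to 42639, 50526 and 45796 in nano-TiO2 replicates 1, 2 and 3, against 46115, 51077 and 46725 in sham replicates 1, 2 and 3. The nano-TiO2 libraries spanned the sham libraries but for sham replicate 2, and the means were 46320 ± 3970 in nano-TiO2 and 47972 ± 2706 in sham libraries (SD, n = 3 each). The log2 change was -0.05 ± 0.08 SE (95% interval -0.22 to 0.12; adjusted p = 0.73, limma over 19361 genes). Nppb summed to 2004, 1335 and 1212 in nano-TiO2 replicates 1, 2 and 3, against 2140, 1462 and 1768 in sham replicates 1, 2 and 3. Its groups overlapped, and the log2 change of -0.26 ± 0.19 SE did not pass (95% interval -0.67 to 0.16; adjusted p = 0.48, limma). With TMM scaling of the adjusted values, which brought the median change of all genes to 0.01, the changes were -0.21 ± 0.08 SE for Nppa (adjusted p = 0.30, limma) and -0.42 ± 0.22 SE for Nppb (adjusted p = 0.41, limma), and neither passed. Over all genes 0% passed in this table by limma, against 18.6% at an unadjusted p of 0.05, the groups did not overlap in 22.4%, and the median change was 0.17. Without sham replicate 2, 1611 genes passed as higher and 267 as lower (limma), but neither Nppa nor Nppb.

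The factor itself showed what was taken out. For Nppa it was 1.21, 0.844 and 1.30 in nano-TiO2 replicates 1, 2 and 3, against 0.751, 1.05 and 0.838 in sham replicates 1, 2 and 3. The libraries with a factor above 1 were the 3 with the highest IP level, nano-TiO2 replicates 1 and 3 and sham replicate 2. For Nppb the factor was 0.860, 0.566 and 1.15 in nano-TiO2 replicates 1, 2 and 3, against 0.900, 0.891 and 1.63 in sham replicates 1, 2 and 3, with its highest value in sham replicate 3, the library with the most Nppb. The factor is had from the IP values, so part of this likeness is built in. Neither factor differed past the threshold, with log2 changes of 0.34 ± 0.21 SE for Nppa (adjusted p = 0.20, limma) and -0.41 ± 0.31 SE for Nppb (adjusted p = 0.29, limma), where 37.1% of 13489 genes passed. That share varied with the library dropped, from 5007 genes with every library in (limma). Dropping nano-TiO2 replicate 1, 2 or 3 left 0, 4776 and 0 genes, in that order. Dropping sham replicate 1, 2 or 3 left 1740, 1520 and 4289 genes.

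Along the windows, Nppa gave an even plateau rather than a narrow peak. Windows start 25 nucleotides apart along the gene model, and both genes lie on the forward strand in RefSeq, so genomic order and transcript order would run the same way. The window starting at nucleotide 376 was the highest in 5 of the 6 libraries and the one at 476 in sham replicate 3, and the highest window was 1.30 to 1.43 times the library's median over the 31 windows that passed a mean of 10. Window 376 held 2513, 2084 and 2853 normalized reads in nano-TiO2 replicates 1, 2 and 3, against 1673, 2739 and 1768 in sham replicates 1, 2 and 3, which repeats the order of the summed level. The signal then dropped off towards the end: window 676 had 809 to 1142 normalized reads in nano-TiO2 and 631 to 933 in sham libraries, window 701 had 271 to 362 and 222 to 333, and window 726 had 24.5 to 54.0 and 31.1 to 40.5, each time nano-TiO2 before sham. The last 3 windows, which start at 776 to 826, had no read in any library, which allows up to 3 reads per library, or 0.00405% to 0.0104% of the gene's reads.

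Nppb also had signal over most of its length, with a dip and a maximum near the end. Window 551 was the highest in 5 of 6 libraries, and window 576 in sham replicate 2. Window 551 held 112, 50.5 and 91.8 normalized reads in nano-TiO2 replicates 1, 2 and 3, against 123, 67.9 and 187 in sham replicates 1, 2 and 3. A library's highest window was 1.61 to 1.74 times its median window. The dip lay just before it, at window 501, with 37.9, 12.4 and 20.1 normalized reads in nano-TiO2 replicates 1, 2 and 3, against 49.5, 14.2 and 44.6 in sham replicates 1, 2 and 3. It was the lowest window before the end in every library but sham replicate 1, where window 476 was slightly lower (47.7). The last 5 windows, from 651 to 751, had no read in any library, which allows up to 0.140% to 0.328% of the gene's reads. Dip, maximum and empty end were thus present in both groups.

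**Figure D4:**
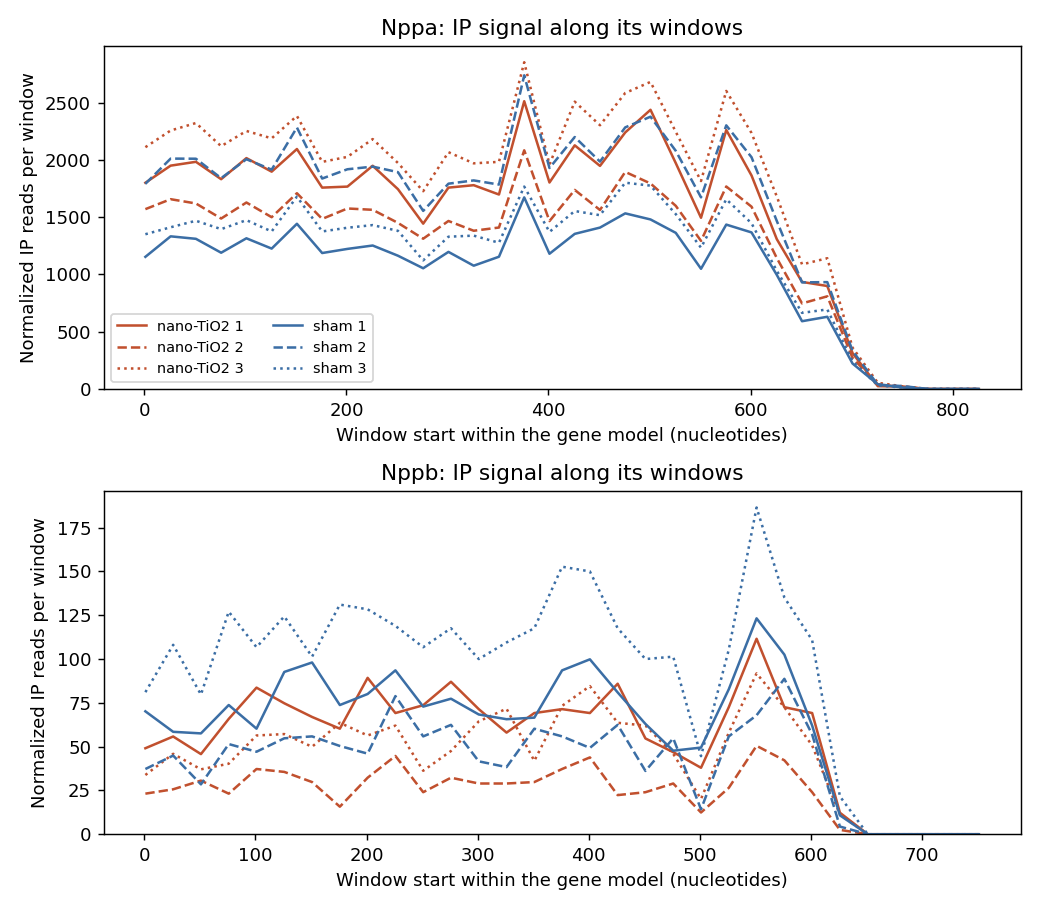
Normalized IP reads in each window of Nppa (top) and Nppb (bottom) against the window's start in the gene model, 1 line per library. Nppa stays on a plateau up to about the window at 626 and Nppb has a dip at 501 (at 476 in sham replicate 1) and its maximum at 551 or 576; no library has a read past window 751 of Nppa or past window 626 of Nppb.

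The shape of the signal was then compared apart from its level. Over the 31 Nppa windows the libraries' profiles correlated at 0.992 to 0.996 within groups and 0.989 to 0.994 between them (Pearson's r across windows, a description, since windows of a gene share its libraries). Over 26 Nppb windows the range was 0.689 to 0.844 within groups and 0.605 to 0.854 between them, at the lower depth of 914 to 1736 reads per nano-TiO2 library and 1187 to 2140 per sham library. The first 9 of 34 Nppa windows held 33.1% ± 0.23 of the gene's reads in nano-TiO2 and 32.9% ± 0.14 in sham libraries (SD, n = 3 each; exact permutation p = 0.2, adjusted p = 0.467). The first 8 of 31 Nppb windows held 28.6% ± 0.98 in nano-TiO2 and 29.6% ± 0.97 in sham (exact permutation p = 0.4, adjusted p = 0.56). The last 8 Nppa windows held 4.38% ± 0.12 of the gene's reads in nano-TiO2 and 4.24% ± 0.07 in sham (exact permutation p = 0.2, adjusted p = 0.467), and the last 7 Nppb windows 4.22% ± 0.64 in nano-TiO2 and 4.37% ± 0.51 in sham (exact permutation p = 0.7, adjusted p = 0.817). The mean window position was 330.0 ± 1.4 nucleotides in nano-TiO2 and 331.4 ± 0.64 in sham for Nppa (exact permutation p = 0.3, adjusted p = 0.525), and 314 ± 7.7 in nano-TiO2 and 313 ± 3.2 in sham for Nppb (exact permutation p = 0.9, adjusted p = 0.9). With 3 against 3 none of these tests can go below 0.1. The Nppb differences had no stable sign: the difference in mean position of 1.15 nucleotides was -3.24 without nano-TiO2 replicate 3 and -0.089 without sham replicate 1, and that in the last windows of -0.14 percentage points was 0.22 without nano-TiO2 replicate 2 and 0.032 without sham replicate 2.

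Single windows did separate the groups by their share of the gene. In Nppa 6 of 31 windows did (1, 51, 226 and 651 higher in nano-TiO2, 151 and 526 lower), or 19.4%, and in Nppb 4 of 26 (101, 301 and 551 higher, 76 lower), or 15.4%, against 11.3% of all 250317 windows. The shares of Nppa window 151 were 4.02% ± 0.033 in nano-TiO2 and 4.24% ± 0.063 in sham libraries (SD, n = 3 each). Those of Nppb window 101, which had the largest difference among the Nppb windows, were 4.60% ± 0.50 in nano-TiO2 and 3.49% ± 0.31 in sham libraries (SD, n = 3 each). None passed a test of the log2 share over all windows, which takes the spread of whole libraries out of the error and was added after seeing the data (limma, smallest adjusted p = 0.83 in Nppa and 0.72 in Nppb, where 0.0407% of all windows passed). At an unadjusted p of 0.05 this test had 0 of 31 Nppa windows and 1 of 26 Nppb windows, window 101 (log2 0.40 ± 0.16 SE), against 6.26% of all windows. The planned test of windows against their gene (limma diffSplice), which keeps the libraries' shared spread in its error, called 0 windows in both genes and had none at an unadjusted p of 0.05, where 0.0465% of all windows passed; its smallest unadjusted p among them was 0.36, so it says little about these windows.

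**Figure D5:**
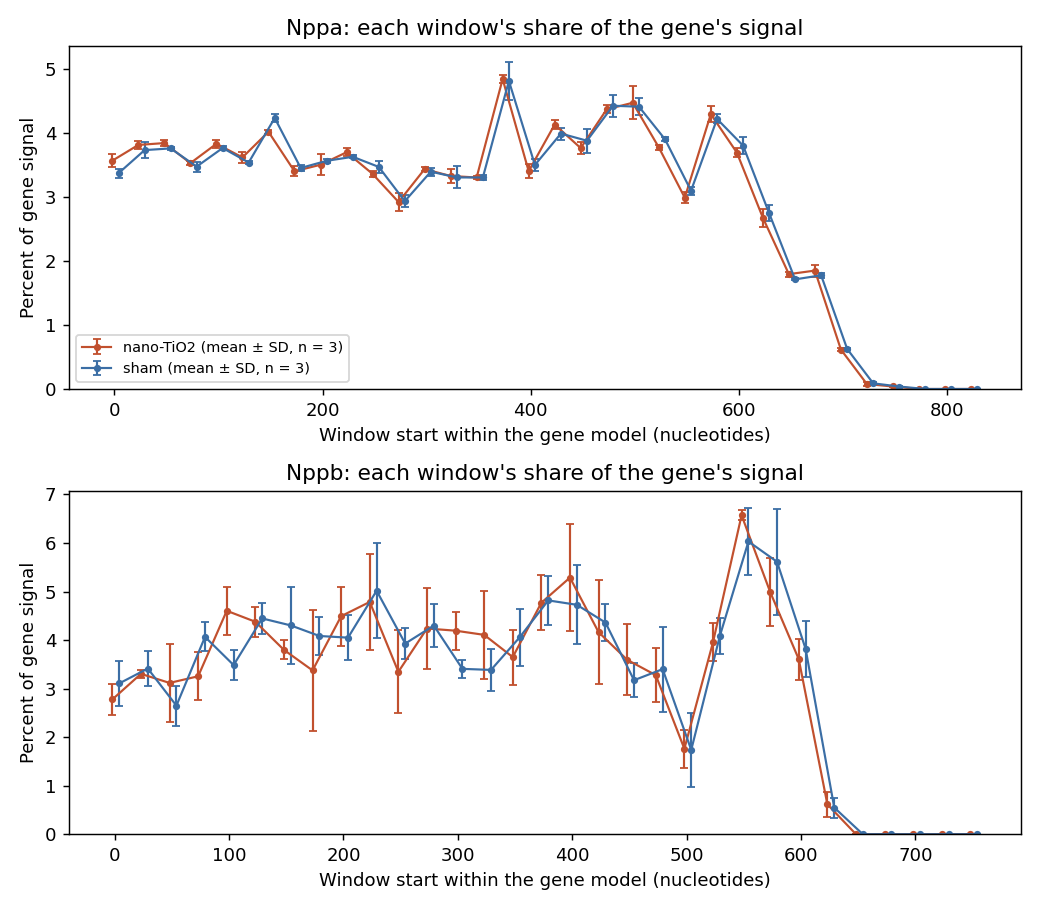
Each window's percentage of its gene's signal for Nppa (top) and Nppb (bottom), mean ± SD of 3 nano-TiO2 and 3 sham libraries, against window start. The curves of the groups follow each other within about 0.22 percentage points in Nppa and 1.12 in Nppb.

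Tested one by one, all 31 Nppa windows had a higher estimate in nano-TiO2, with log2 changes of 0.06 to 0.36, and all 26 Nppb windows a lower one, with changes of -0.98 to -0.26; windows of a gene share its libraries and are not independent. None of the Nppa windows passed (limma; 0 also at an unadjusted p of 0.05), where 3.88% of all windows passed as higher, and in 0 of 31 the groups did not overlap, against 11.5% of all windows with the nano-TiO2 libraries above. In Nppb 1 of 26 passed, where 7.32% of all 250317 windows passed as lower in nano-TiO2, and 14 of 26 had an unadjusted p under 0.05, against 17% of all windows in that direction. The groups did not overlap, with nano-TiO2 lower, in 3 of 26 (windows 226, 476 and 576), or 11.5%, against 19.7% of all windows. The called window, 576, held 72.5, 42.2 and 72.5 normalized reads in nano-TiO2 replicates 1, 2 and 3, against 103, 88.7 and 135 in sham replicates 1, 2 and 3. Each nano-TiO2 value lay below each sham value, and the log2 change was -0.81 ± 0.25 SE (adjusted p = 0.044, limma). The call is fragile: without nano-TiO2 replicate 2 or 3, or without sham replicate 1 or 3, 0 windows of Nppb passed. In those fits 21647, 13744, 12114 and 20088 of all windows passed, in that order, against 28052 with every library in. Without nano-TiO2 replicate 1, 4 windows of Nppb passed, beside 13155 of all windows. Without sham replicate 2, 2 windows of Nppb passed, beside 17866 of all windows. In the adjusted values window 576 had 84, 75 and 63 in nano-TiO2 replicates 1, 2 and 3, against 114, 100 and 83 in sham replicates 1, 2 and 3, and a log2 change of -0.41 that did not pass (adjusted p = 0.49, limma). No adjusted window of either gene passed (limma), where 0.00316% of all windows did; at an unadjusted p of 0.05, 0 of 31 in Nppa and 3 of 25 in Nppb did, those of Nppb all lower, against 2.74% of all windows in that direction.

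Genes whose IP level ran most like each member over the 6 libraries were picked by Pearson's r of the log2 level, as a description. The closest to Nppa was ENSMUSG00000086806, with r = 0.999, and it held 65.5% to 66.6% of Nppa's level in every library, 34122 normalized reads on average in nano-TiO2 and 27997 in sham. Its near-fixed proportion to Nppa was seen after it had been picked. The tables give no positions, and neither the strand setting nor the treatment of overlapping genes is stated, so it was not tested whether the same reads were counted for both, and the Nppa level itself is uncertain to that extent. The next was ENSMUSG00000011257 (r = 0.996, log2 change 0.21). For Nppb the closest were ENSMUSG00000067161 (r = 0.999, log2 change -0.17), whose level was between 87.6% and 239% of Nppb's over the libraries, so in no fixed proportion, and ENSMUSG00000099875 (r = 0.994, log2 change -0.38). Nppa and Nppb themselves had r = -0.32 over the 6 libraries.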

How the data were processed

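The 6 samples are anti-m6A IP libraries, grouped and numbered by their titles. Each IP started with 3 µg of fragmented RNA and 5 µg of antibody, per the labels' protocols. The submitters' processing notes name the build GRCm39 and the tools Salmon 1.5.2, HISAT2 2.2.1 and DESeq2 1.34.0 without saying what each did. One deposited table, called normalized, gives signal for each window in an unstated unit. Its values were read as multiples of a fixed step in each library, and division by that step gave reads. Of the values above 0, 100% were whole within 0.0001 of the count. That tolerance widens with the count, so the check is weak for windows with many reads. A second deposited table, called adjusted, gives scores that are whole numbers. One more, called filtered, repeats the first byte for byte.

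Windows were summed per gene. Genes and windows with a mean of at least 10 were tested with limma 3.58.1 (trend; diffSplice and, added later, log2 shares within genes) in R 4.3.3 on log2(value + 1), which understates changes of low genes, and adjusted by Benjamini-Hochberg over all of them. Per-library values had exact permutation tests (SciPy 1.17.1). The factor is the normalized over the adjusted value, for genes where rounding fixes it within a relative width of 0.2. Alternatives were other scalings, filters and pseudocounts, edgeR 4.0.16 and DESeq2 1.42.0 on recovered reads, a replicate block and leaving out each library. Tests were tried on simulated data, where windows were drawn independently, without the spread that windows of a gene share in a library. Floors of 3 reads cover counting error only.

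The members, lists and tests were chosen with earlier results of these data known. Named genes were the members, the 2 genes most like each, each member's highest window and its called windows. Window 501 of Nppb and the windows at the Nppa end were added after their values were seen. No table at hand pairs the identifiers with symbols (0 of 48505 matched), so the other natriuretic genes, their regulators and heart cell markers were not analysed here.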

Additional observations from a re-analysis of the deposited data

How the results depend on the processing

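The IP change of Nppa passed under 4 alternatives and did not pass under the others: 0.75 after quantile normalization, 0.78 with equal library totals, 0.55 when the 4 most abundant genes were left out of the totals, and 0.79 with the length trend removed, against 0.28 as reported. That of Nppb passed with the replicate block alone (-0.66, adjusted p = 0.032, limma). In that fit 4191 of 18566 genes passed as higher and 2224 as lower. With that block 7 windows of Nppb passed in IP level, against 1 as reported. Of all windows 31744 passed with the block, against 28052 as reported. The Nppb count was 0 with windows of a mean of at least 1, where 27133 of all windows passed. It was 2 with a mean of at least 50, where 22337 passed, and 0 with TMM scaling, where 20784 passed. The cause of these moves was not tested. The labels do not say whether same-numbered libraries belong together. Deviations of same-numbered libraries from their group means correlated at -0.37, 0.18 and 0.02. With 3 libraries per group these values cannot decide whether the libraries were paired. The difference in the share of the last windows of Nppa turned to -0.044 percentage points when counted over windows with a mean of at least 10, a choice made after seeing the data, against 0.13 as reported.

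Leaving out each library in turn gave IP changes of 0.15 to 0.47 for Nppa and -0.95 to -0.32 for Nppb. Adjusted changes were -0.12 to 0.01 for Nppa, above 0 only without nano-TiO2 replicate 1 (0.0054), and -0.48 to -0.11 for Nppb. Factor changes were 0.21 to 0.53 for Nppa and -0.65 to -0.12 for Nppb. In IP level 0 to 4 windows of Nppb passed, where 12114 to 21647 of all windows passed. None of the gene-level changes passed in these fits (limma). The Nppb over Nppa difference ran from -1.41 to -0.61 on the log2 scale. Nppb had 914 to 2140 reads per library and Nppa 28973 to 74129.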
